A study of Mus musculus with 74 samples.

Results

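Nanog-null mouse ES cells that had lived without Nanog for a long time were compared with the same cells 24 h after Nanog was switched off. The line, 44iN, derives from E14Tg2a ES cells, lacks functional Nanog genes and carries a Nanog transgene that is expressed only in doxycycline (Dox). The comparison rests on 4 of the 35 RNA-seq libraries, 2 from cells kept long-term without Dox and 2 from cells from which Dox (1 µg/ml) had been withdrawn for 24 h, picked by the labels of the libraries. The 2 44iN libraries in Dox and the 3 libraries of wild-type Tg2a cells were used to place each change. All cells grew on gelatine in serum and LIF (10 ng/ml).

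44iN is a single line, and nothing in the sources used here says that the replicates came from separate cultures, so that p-values measure only the spread between these libraries. The long-term cells were maintained under G418 selection, which the methods do not name for the cells at 24 h, and their number of passages is not given in the sources used here. The names of the libraries also put the long-term ones in another set than those at 24 h and in Dox, which share a set. Effects of selection, of passage, of the library set and of Nanog loss itself cannot be told apart in this design. The libraries also differed in depth: estimated counts summed to 47233398 and 67060119 in long-term cells, 12624297 and 17425410 at 24 h, 19260874 and 37974444 in Dox, and 48926321 to 92244655 in Tg2a cells (lowest and highest library of each group).

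Nanog is a homeodomain transcription factor that stabilises the undifferentiated state of ES cells. It acts beside Oct4, Sox2, Esrrb and the Klf factors, and ES cells without it can still self-renew in LIF, although they differentiate more readily. In the blastocyst, Nanog marks the epiblast, while Gata6, Gata4 and Sox17 mark the primitive endoderm, the layer that lines the epiblast and lays down basement membrane. Cultures in serum and LIF move between a naive state, marked by genes such as Klf4 and Tfcp2l1, and states closer to the post-implantation epiblast, marked by genes such as Otx2, Fgf5 and Dnmt3b.

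Nanog (ENSMUSG00000012396, chromosome 6 of mm9, 122657507 to 122664651) behaved as the labels state. It had 13366 and 18394 normalised counts in Dox, 706 and 739 at 24 h, and 276 and 228 in long-term cells, against 19420 to 20261 in Tg2a cells. Thus most of its mRNA was gone by 24 h, and the long-term libraries lay below both 24 h libraries. The further fall was 2.70-fold (log2 fold change −1.44, standard error 0.23, adjusted p = 0.0370). Normalised counts are the counts that the authors divided by a size factor for each library, and p-values are those of edgeR's quasi-likelihood test, adjusted by Benjamini-Hochberg over all genes tested.

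The cells kept the defining markers of ES cells in both groups, some of them at lower levels in long-term cells. Pou5f1, which encodes Oct4, had 6786 and 9305 normalised counts at 24 h and 10159 and 11293 in long-term cells (log2 fold change 0.49, standard error 0.42, adjusted p = 0.477). Sox2 had 23712 and 19025 at 24 h and 8003 and 10546 in long-term cells (−1.12, standard error 0.32, adjusted p = 0.0942). Zfp42, or Rex1, went from 23501 and 18717 to 12811 and 14636 normalised counts (adjusted p = 0.163). DESeq2's Wald test called the fall of Sox2 (adjusted p = 0.0128) but not that of Zfp42 (0.105). With edgeR and an offset for GC content, described below, both were called lower (adjusted p = 0.0429 and 0.0437). Esrrb, also a defining marker, went from 7629 and 10545 to 3857 and 4339 normalised counts (edgeR, adjusted p = 0.0953). The markers of feeder fibroblasts were low throughout. The summed normalised counts of the 12 fibroblast genes tested were 979 and 775 at 24 h and 1055 and 1500 in long-term cells, none of these genes was called in either direction, and Col3a1 had at most 2 counts in the long-term libraries.

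Of 15096 genes tested, 477 (3.16%) passed an adjusted p-value of 0.05 between long-term cells and cells at 24 h, and such genes are referred to as called. They comprised 218 genes that were higher in long-term cells (1.44% of the genes tested) and 259 that were lower (1.72%). In the same model, 14 genes were called between 24 h and Dox (0.0927% of the genes tested), 3 higher (0.0199%) and 11 lower (0.0729%) at 24 h. Between long-term cells and Dox 1162 were called (7.70%), 541 higher (3.58%) and 621 lower (4.11%) in long-term cells. The long-term and 24 h libraries did not overlap for all 477 called genes, but this was so for 68.9% of all genes tested. At an unadjusted p-value of 0.05, 3928 genes differed between long-term cells and 24 h, and 1418 between 24 h and Dox. The paper, by DESeq2's Wald test, reports more genes for Dox withdrawal of 24 h than the 14 called here.

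The number of calls changed with the libraries in the model. Without 1 of the 2 long-term libraries no gene was called, and without 1 of the 2 libraries at 24 h 2 or 3 genes were, whereas 3955 and 3977 were called without 1 or the other of the libraries in Dox, which were the least alike. All 477 genes kept their direction in each of these 6 fits. The libraries also differed in how counts depended on the GC content of a gene's exons. Across 15047 genes, Spearman's rank correlation between GC content and the log2 fold change was 0.41 for long-term minus 24 h, −0.57 for 24 h minus Dox and 0.00 for long-term minus Dox (a description across genes, which are not independent replicates). The median log2 fold change of long-term minus 24 h ran from −0.46 in the fifth of genes lowest in GC to 0.44 in the highest. An offset for this trend, added after the data were seen, raised the calls to 1130 higher and 989 lower, among them 455 of the 477.

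**Figure D1:**
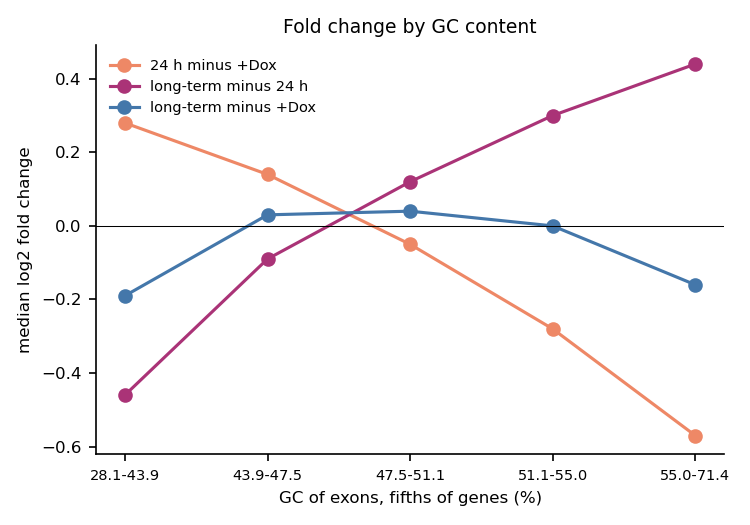
Median log2 fold change (y axis) of the genes tested, in 5 bins of equal size by the GC content of their exons (x axis, percent), for each pair of 44iN groups. The line of long-term minus 24 h climbs from −0.46 to 0.44, that of 24 h minus Dox falls from 0.28 to −0.57, and that of long-term minus Dox lies between −0.19 and 0.04.

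The genes that rose most in long-term cells were led by genes of the primitive endoderm. Of 30 such genes listed, 25 passed the filter on low counts, and 12 of them were called higher and 0 lower, against 1.44% of all genes called higher. Their median log2 fold change was 2.91, beside 0.07 for all genes tested. With the GC offset 17 of the 25 were called higher and the median was 2.48. In bulk RNA, more cells of a type and more RNA per cell cannot be told apart. The summed normalised counts of these 25 genes were 32068 and 30211 at 24 h and 111481 and 75139 in long-term cells, against 33572 and 34607 in Dox and 65198 to 94718 in Tg2a cells.

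Gata4 (ENSMUSG00000021944, chromosome 14, 63817759 to 63890529), a zinc-finger transcription factor of this layer, had 28.8 and 11.8 normalised counts at 24 h and 656 and 481 in long-term cells. The groups were far apart, by 28.9-fold (log2 fold change 4.85, standard error 0.81, adjusted p = 0.0382). In Dox it had 30.7 and 3.11 normalised counts, so that it lay as low before Nanog loss as 24 h after it. The other defining markers pointed the same way without being called. Gata6, which acts above Gata4, had 355 and 349 normalised counts at 24 h and 1501 and 942 in long-term cells (log2 fold change 1.88), and Sox17 had 36.0 and 5.92 at 24 h and 212 and 129 in long-term cells (3.06). Of the 3, Gata6 alone had Dox libraries, at 99.1 and 14.0 normalised counts, that did not overlap those at 24 h. This was so for 36.8% of all genes tested.

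Pdgfra (chromosome 5, 75548316 to 75594229), the PDGF receptor on primitive endoderm cells, had 293 and 115 normalised counts at 24 h and 3551 and 2258 in long-term cells, a 15.0-fold rise (adjusted p = 0.0294). Sox7, a transcription factor close to Sox17, had 38.4 and 35.5 at 24 h and 362 and 223 in long-term cells (8.37-fold, adjusted p = 0.0258). Foxa2, a forkhead factor of endoderm, had 7.20 and 2.96 at 24 h and 106 and 79.7 in long-term cells, too few counts at 24 h for a fold. Lrp2, the scavenger receptor megalin, rose 2.89-fold and Amn, which anchors its partner cubilin, went from 0 counts at 24 h to 35.5 and 26.6 normalised counts. The endocytic genes Cubn (539 ± 520 normalised counts at 24 h and 9213 ± 5086 in long-term cells, SD, n = 2) and Dab2 (315 ± 315 and 5612 ± 1589) were not called, and their replicates lay far apart (adjusted p = 0.0693 and 0.0572).

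Matrix genes of this layer were among the called genes. Lama1 and Lamb1 encode chains of laminin-111, the first laminin of the embryo. Lama1 had 2001 and 2076 normalised counts at 24 h and 12659 and 7357 in long-term cells (5.20-fold, adjusted p = 0.0258), and Lamb1 had 2321 and 1905 and then 11751 and 8842 (5.17-fold, adjusted p = 0.0184). Col4a1 and Col4a2, the chains of the basement membrane collagen IV, rose 7.50-fold and 12.9-fold (adjusted p = 0.0264 and 0.0245). Serpinh1, the collagen chaperone Hsp47, had 386 and 316 normalised counts at 24 h and 1818 and 1572 in long-term cells (5.11-fold), and Sparc, a collagen-binding matrix protein, rose 2.63-fold. Nid1, encoding the basement membrane linker nidogen, fell from 5812 and 6040 to 2708 and 1797 normalised counts (log2 fold change −1.31, adjusted p = 0.0444), and Lamc1, the third chain of laminin-111, was not called (0.72).

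Col4a1 and Col4a2 stand head to head in the genome, and their start regions share bases. The window of Col4a2 in the RefSeq promoter table, from 250 bases before to 50 after the start, lies at chr8:11312555-11312854 on the plus strand of GRCm38.p6, and is printed because 2 of the called genes read out from it in opposite directions. Capitals mark the 78 bases that it shares with the window of Col4a1 (chr8:11312777-11313076, minus strand), and the listed starts are 21 bases apart.

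Col4a2: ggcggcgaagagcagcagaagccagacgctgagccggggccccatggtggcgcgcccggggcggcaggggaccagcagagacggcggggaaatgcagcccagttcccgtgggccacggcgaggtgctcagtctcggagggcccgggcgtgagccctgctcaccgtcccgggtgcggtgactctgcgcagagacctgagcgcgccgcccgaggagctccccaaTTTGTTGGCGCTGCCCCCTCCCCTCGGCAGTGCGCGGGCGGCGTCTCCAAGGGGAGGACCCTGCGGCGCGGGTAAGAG

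The levels of wild-type cells lay near those of long-term cells for these genes, not near those at 24 h. In a model of 9 libraries with the 3 Tg2a libraries, 0 of the 25 primitive endoderm genes were called between long-term and Tg2a cells, where 5.22% of all genes were (2.19% higher and 3.03% lower in long-term cells), and their median log2 fold change was 0.18. For 24 h minus Tg2a the median was −2.61, beside −0.06 for all genes tested. Of the 25, 17 were called, as were 1637 of all 15096 genes. Gata4 had 441, 327 and 438 normalised counts in Tg2a cells, between the 24 h and the long-term libraries. Over all called genes, 157 of the 218 higher genes had a long-term level closer to Tg2a cells than the level at 24 h was, against 9505 of all 15096 genes (63.0%). Of the 259 lower genes, 115 did so. Tg2a cells are another culture, with libraries as deep as those of long-term cells, and the part of depth or batch in this likeness was not tested.

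**Figure D2:**
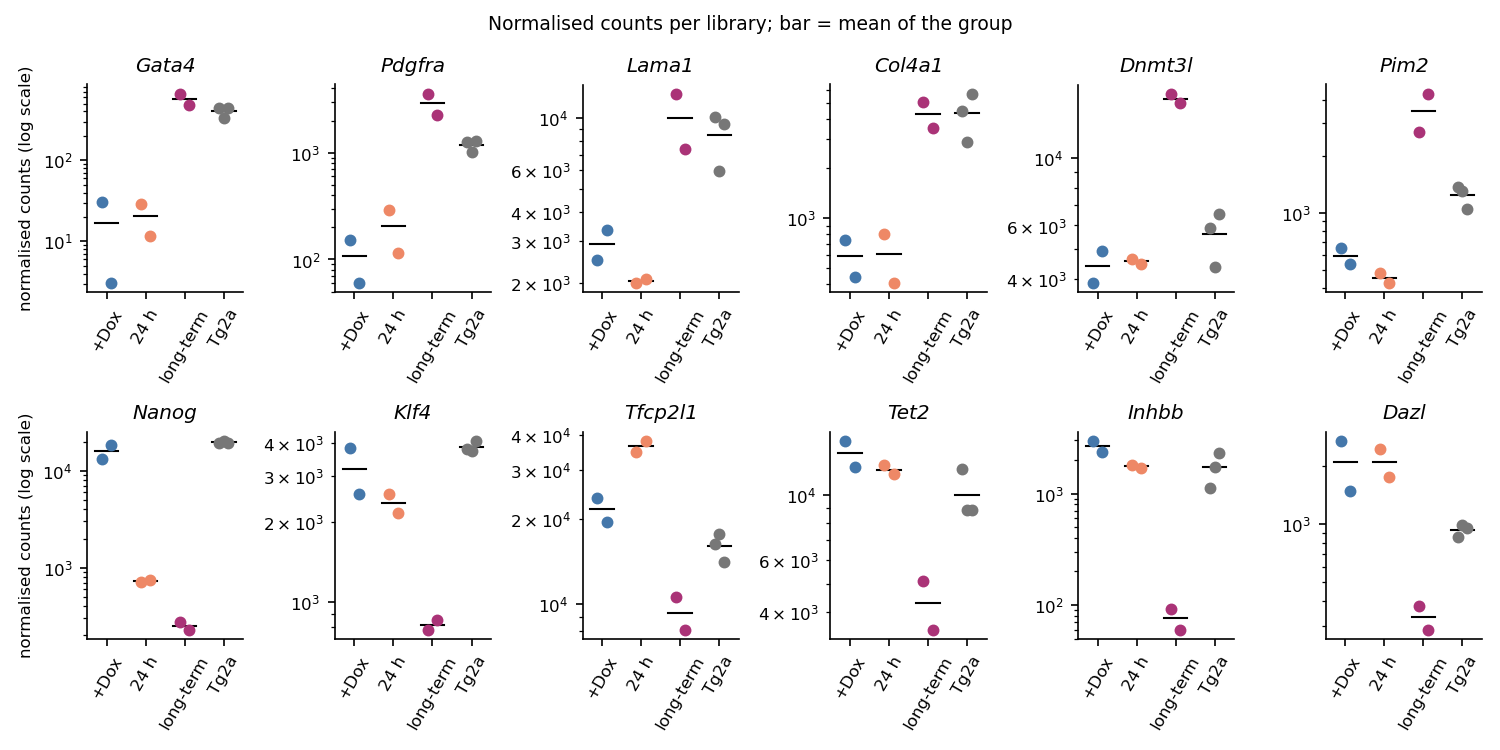
Normalised counts (y axis, log scale) of 12 genes in each library of 44iN cells in Dox, at 24 h without Dox and long-term without Dox, and of Tg2a cells (x axis); points are libraries and bars the means of the groups. For the 6 genes in the top row the long-term libraries lie above both 24 h libraries, as with Gata4 at 656 and 481 against 28.8 and 11.8; for the 6 in the bottom row they lie below, as with Inhbb at 91.6 and 59.9 against 1824 and 1704.

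Among genes of naive pluripotency, a subset fell. All 36 genes listed passed the filter, 5 were called lower and 0 higher (1.72% of all genes were called lower), and their median log2 fold change was −0.23. Under the GC offset 12 were called lower and 2 higher. Klf4 (chromosome 4, 55540013 to 55545347), a Krüppel-like factor downstream of LIF, had 3803 and 2566 normalised counts in Dox, 2551 and 2174 at 24 h and 782 and 850 in long-term cells. The step after 24 h was 2.73-fold (log2 fold change −1.45, standard error 0.22, adjusted p = 0.0332), and that between Dox and 24 h was not called (−0.52). Tet2, a dioxygenase that oxidises 5-methylcytosine, had 12587 and 11766 normalised counts at 24 h and 5101 and 3481 in long-term cells (2.68-fold lower, adjusted p = 0.0367). It had 15213 and 12466 in Dox and 8894 to 12221 in Tg2a cells, so that the long-term libraries stood alone.

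Tfcp2l1, a LIF-responsive transcription factor of naive cells, and Nr5a2, a nuclear receptor that acts on Pou5f1, had their highest 44iN levels at 24 h. Tfcp2l1 had 23934 and 19646 normalised counts in Dox, 34842 and 38017 at 24 h and 10539 and 8075 in long-term cells (3.70-fold lower than at 24 h, adjusted p = 0.0245). Nr5a2 had 1912 and 1560, then 3998 and 3357, and then 1427 and 1455 (2.41-fold lower than at 24 h, adjusted p = 0.0294). The difference between 24 h and Dox was not called for either of them. The adhesion gene Jam2 fell 2.19-fold after 24 h (adjusted p = 0.0421).

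Esrrb, an orphan nuclear receptor and a direct Nanog target, had 10695 and 17962 normalised counts in Dox, 7629 and 10545 at 24 h and 3857 and 4339 in long-term cells. Both long-term libraries lay below both at 24 h, but the difference was not called (log2 fold change −1.07, standard error 0.31, adjusted p = 0.0953), while DESeq2's Wald test called it (adjusted p = 0.0113). Prdm14, which restrains DNA methylation in naive cells, had 252 and 284 normalised counts at 24 h and 133 and 132 in long-term cells (−0.93, adjusted p = 0.0828). Tbx3, a T-box repressor, had 4053 and 4434 and then 2579 and 1797 (−0.87, adjusted p = 0.0739). DESeq2 called these genes too (adjusted p = 0.0106 and 0.00771). Klf5, related to Klf4, had 2073 and 2612 normalised counts at 24 h and 2388 and 2251 in long-term cells, which overlapped (0.07, adjusted p = 0.852).

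For genes of the formative and primed epiblast the calls were in the other direction. Of 30 listed, 29 were tested, 4 were called higher (1.44% of all genes were) and 0 lower. Their log2 fold changes had a median of 0.95, with 26 of the 29 above 0, as were 8155 of all 15096 genes. The GC offset gave 9 called higher and 2 lower. Pim2, a survival kinase, had 452 ± 36.5 normalised counts (SD, n = 2) at 24 h and 2695 and 4284 in long-term cells (8.18-fold, adjusted p = 0.0184), above the 1050 to 1370 of Tg2a cells. Dnmt3b, a de novo DNA methyltransferase, had 6285 and 4253 and then 13571 and 15853 (2.96-fold, adjusted p = 0.0383). Krt18, a keratin that is also on the trophoblast list, rose 6.88-fold and its partner Krt8 4.84-fold (adjusted p = 0.0383 and 0.0337). In Tg2a cells Krt8 had 501 to 1384 normalised counts, above both long-term libraries at 358 and 413, while the long-term libraries overlapped Tg2a cells for Krt18. Car14, a carbonic anhydrase, went from 0.00 and 2.96 to 28.8 and 55.2 normalised counts.

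Otx2, which drives the exit from naive pluripotency, belonged to the early changes that persisted. It had 218 and 171 normalised counts in Dox, 1380 and 1769 at 24 h and 1336 and 2025 in long-term cells, and the difference after 24 h was 0.18 on the log2 scale (standard error 0.27, adjusted p = 0.699). Fgf5, a marker of the primed epiblast, was close to absent at 24 h, with 0.00 and 5.92 normalised counts, and had 36.0 and 77.6 in long-term cells (adjusted p = 0.0719). Sema6a, a semaphorin, had 149 and 109 at 24 h and 332 and 503 in long-term cells (log2 fold change 1.77, adjusted p = 0.0739). DESeq2 called Fgf5 and Sema6a, with adjusted p-values of 0.0185 and 0.00366.

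In the DNA methylation machinery (20 genes, all tested) the calls were Dnmt3b and Dnmt3l higher and Tet2 lower. Of all genes 1.44% were called higher and 1.72% lower, and the GC offset gave 2 and 3 of the list. Dnmt3l, the catalytically inactive partner of the de novo methyltransferases, had 4648 and 4490 normalised counts at 24 h and 16281 and 15157 in long-term cells, a 3.64-fold rise (log2 fold change 1.87, standard error 0.20, adjusted p = 0.0245). The long-term level lay above Tg2a cells, with 4390 to 6555. The median of the 20 genes was −0.14. In the germline list 39 of 42 genes were tested, with 1 called higher and 2 lower, and 3 and 5 with the GC offset. Dazl, an RNA-binding protein of germ cells, fell 5.88-fold from 2424 and 1736 normalised counts to 380 and 285 (adjusted p = 0.0258).

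For the Nodal, activin and BMP genes (33 tested of 36, median log2 fold change −0.11), 2 were called higher and 3 lower. Of all genes 1.44% and 1.72% were, and the GC offset gave 4 and 7 of the list. Inhbb (ENSMUSG00000037035, chromosome 1, 121312042 to 121318825), the activin B subunit, had the smallest p-value of the comparison. It had 2953 and 2341 normalised counts in Dox, 1824 and 1704 at 24 h, 91.6 and 59.9 in long-term cells and 1123 to 2327 in Tg2a cells. The fall after 24 h was 21.8-fold (log2 fold change −4.45, standard error 0.27, adjusted p = 0.0106). Lefty1 and Lefty2, secreted Nodal inhibitors that Nodal induces, had higher levels at each step, of which that after 24 h was called. Lefty1 had 27.7 and 54.4 normalised counts in Dox, 86.4 and 166 at 24 h and 636 and 696 in long-term cells (5.61-fold after 24 h, adjusted p = 0.0444), and Lefty2 had 147 and 187, then 358 and 476, and then 1958 and 1679 (4.62-fold, adjusted p = 0.0245). Smad5 and Smad7, a BMP effector and an inhibitory Smad, were lower (log2 fold changes −0.85 and −1.14, adjusted p = 0.0465 for each).

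Of 32 Wnt genes tested, 0 were called higher and 4 lower (1.72% of all genes were), with a median log2 fold change of −0.04. The GC offset gave 2 called higher and 10 lower. Sfrp1, a secreted Wnt inhibitor, fell 3.78-fold from 977 and 1210 normalised counts to 315 and 230 (adjusted p = 0.0258). Fzd5 and Lrp6, which form Wnt receptors, fell 2.11-fold and by 0.91 on the log2 scale, and Ccnd1, cyclin D1, fell 1.95-fold. In the FGF and ERK list (27 tested) the ERK inhibitor Spred1 was the only gene called, at 13854 and 11107 normalised counts at 24 h and 3037 and 2845 in long-term cells (4.00-fold lower, adjusted p = 0.0364). In the LIF list (25 tested) Klf4 and Tfcp2l1 alone were called. With the GC offset, the FGF and ERK list had 3 called higher and 4 lower, and the LIF list 0 and 3.

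**Figure D3:**
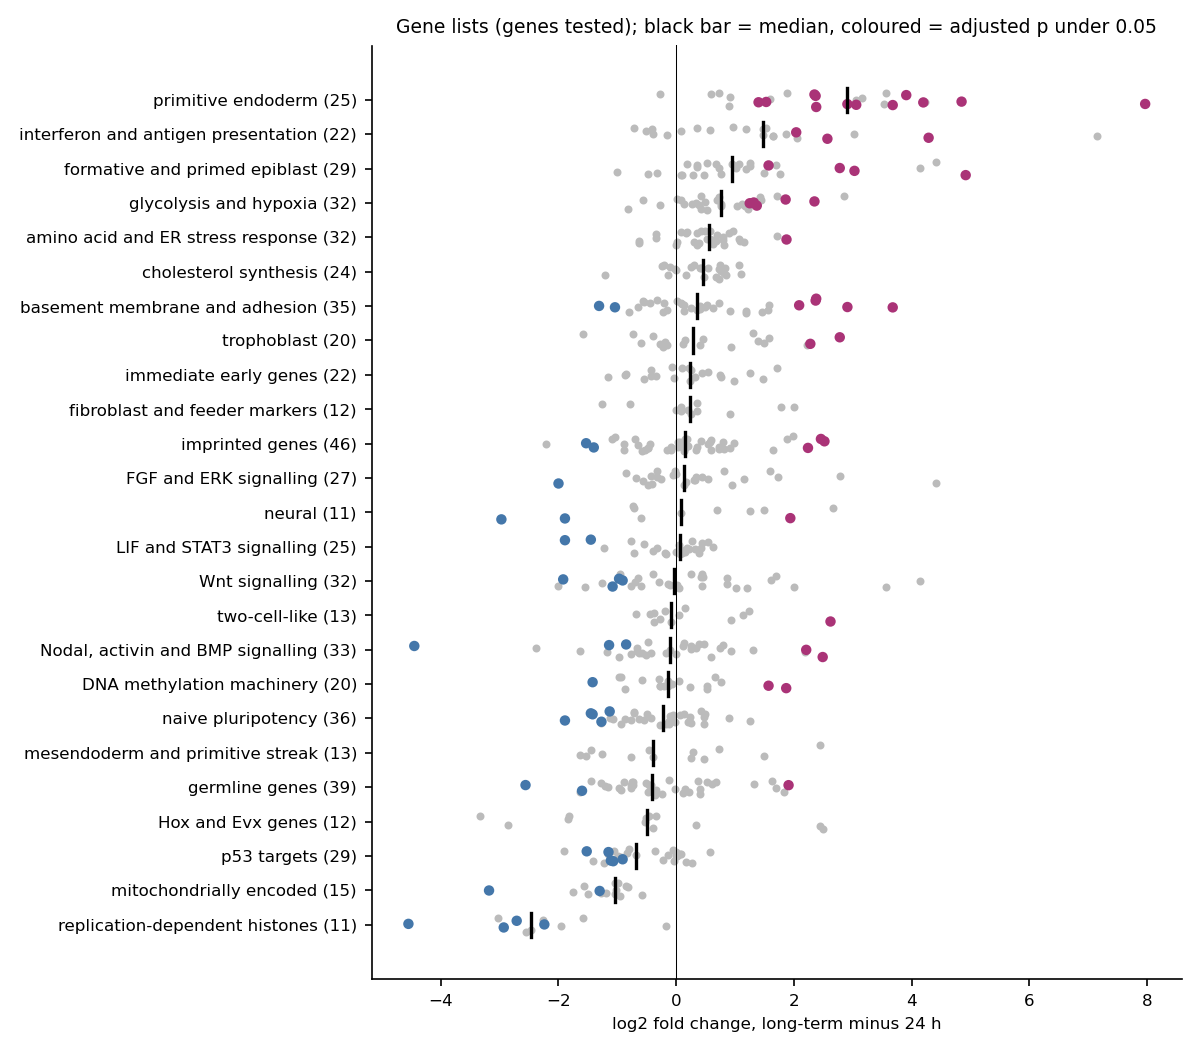
Log2 fold change, long-term minus 24 h (x axis), of the tested members of 25 gene lists (y axis, number tested in brackets); black bars are medians, purple and blue points genes called higher and lower, grey points the rest. Primitive endoderm stands at the top with a median of 2.91, and the replication-dependent histones at the bottom with −2.47.

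Some genes of glycolysis and hypoxia rose in long-term cells. Of 33 listed, 32 were tested, 6 were called higher (1.44% of all genes were) and 0 lower. A log2 fold change above 0 was found for 29 of the 32, against 8155 of all 15096 genes, and the median was 0.76. Pgk1, phosphoglycerate kinase, had 17528 and 16265 normalised counts at 24 h and 37630 and 38096 in long-term cells (2.37-fold, adjusted p = 0.0294). Ldha, lactate dehydrogenase A, had 12529 and 13970 and then 31336 and 31170 (2.50-fold, adjusted p = 0.0437), and Tpi1, triosephosphate isomerase, rose 3.63-fold (adjusted p = 0.0418). P4ha1 and P4ha2, prolyl hydroxylases that modify collagen, rose 2.59-fold and 5.08-fold, and the mitophagy gene Bnip3 2.46-fold (adjusted p = 0.0383, 0.0294 and 0.0460). In Tg2a cells these 6 genes had levels from 0.52 on the log2 scale above to 0.17 below those of long-term cells, and none differed by an adjusted p-value under 0.05. Of all 32 genes tested, 5 were called between long-term and Tg2a cells, where 5.22% of all genes were. With the GC offset 13 of the 32 were called higher and 2 lower.

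The hypoxia-inducible factors bind the letters ACGTG, which also form part of the E-box CACGTG. Both strands of the RefSeq promoter windows were searched for them. They were in 5 of the 6 called genes, in 16 of the 28 listed genes that had a window, and in 25.5% of the 9897 tested genes with one. A match is a description of the letters and not a bound site. The windows of Pgk1, Ldha and Bnip3 (GRCm38.p6, 5′ to 3′ on the strand of the gene) are printed to show where the letters, in capitals, stand. They lie at chrX:106186850-106187149 (plus strand), chr7:46845554-46845853 (plus) and chr7:138909457-138909756 (minus). A GATA motif (AGATAA or TGATAA on either strand) was in 9.70% of the tested genes with a window. For primitive endoderm it was in 3 of the 17 listed genes with a window and in 0 of the 9 called ones. So few genes cannot be set apart from the share of all genes.

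Pgk1: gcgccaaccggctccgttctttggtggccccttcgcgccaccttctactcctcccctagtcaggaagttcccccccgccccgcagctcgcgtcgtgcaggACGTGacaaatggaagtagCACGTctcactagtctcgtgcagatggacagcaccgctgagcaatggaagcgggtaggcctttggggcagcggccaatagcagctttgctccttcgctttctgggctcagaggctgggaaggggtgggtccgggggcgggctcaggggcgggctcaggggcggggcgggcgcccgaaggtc

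Ldha: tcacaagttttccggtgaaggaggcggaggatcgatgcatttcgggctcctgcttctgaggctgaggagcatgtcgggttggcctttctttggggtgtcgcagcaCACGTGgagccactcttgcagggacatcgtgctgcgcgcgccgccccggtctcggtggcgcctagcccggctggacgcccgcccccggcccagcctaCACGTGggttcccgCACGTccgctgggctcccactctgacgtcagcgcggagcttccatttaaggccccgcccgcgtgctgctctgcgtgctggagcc

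Bnip3: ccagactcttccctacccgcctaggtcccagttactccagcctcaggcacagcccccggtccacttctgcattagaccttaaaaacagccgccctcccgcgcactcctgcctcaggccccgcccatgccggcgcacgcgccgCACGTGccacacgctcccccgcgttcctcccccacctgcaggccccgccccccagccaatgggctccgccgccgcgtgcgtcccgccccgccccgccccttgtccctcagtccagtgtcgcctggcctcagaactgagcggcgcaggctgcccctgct

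Some p53 targets fell. Of 30 listed, 29 were tested, 0 were called higher and 5 lower (1.72% of all genes were), and the median log2 fold change was −0.68. Cd80, a costimulatory ligand, had 1454 and 1538 normalised counts at 24 h and 525 and 462 in long-term cells (2.86-fold lower, adjusted p = 0.0258). Mdm2, the ubiquitin ligase that degrades p53, fell 1.88-fold from 12196 and 12121 to 6003 and 6182 (adjusted p = 0.0465). Pmaip1, which encodes the death-promoting protein Noxa, Ddit4l and the non-coding RNA Pvt1 were the other three called. Cdkn1a, the cell cycle inhibitor p21, was not called (−0.14), nor was Bax (0.16). In the median these genes were 0.36 below Tg2a cells on the log2 scale in long-term culture and 0.15 above them at 24 h. With the GC offset 9 were called lower and the median was −0.38.

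Interferon and antigen presentation genes (22 tested of 30) had 3 members called higher (1.44% of all genes were) and 0 lower, with a median log2 fold change of 1.47. Under the GC offset 8 were called higher. H2-K1, a class I heavy chain, had 81.6 and 56.2 normalised counts at 24 h and 388 and 388 in long-term cells (5.94-fold, adjusted p = 0.0332). Gbp2, an interferon-induced GTPase, rose 19.6-fold from 28.8 and 2.96 to 249 and 370 (adjusted p = 0.0421), and Bst2, or tetherin, rose 4.10-fold (adjusted p = 0.0299). Tg2a cells had 310 to 460 normalised counts of H2-K1. Among imprinted genes, 3 were called higher and 2 lower of 46 tested, where 1.44% and 1.72% of all genes were. The GC offset gave 7 called higher and 5 lower. H19, a maternally expressed non-coding RNA, had 97.1 and 107 normalised counts in Dox, 271 and 245 at 24 h and 1674 and 1118 in long-term cells (5.72-fold after 24 h, adjusted p = 0.0245).

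Mitochondrial transcripts and those of the replication-dependent histones, whose mRNAs end in a stem-loop in place of a poly(A) tail, also differed between the groups. All 15 mitochondrially encoded genes were lower in long-term cells, with a median log2 fold change of −1.04. Of these, 2 were called, mt-Atp8 and mt-Nd4l, where 1.72% of all genes were called lower. All 11 replication-dependent histone genes tested were lower too, with a median of −2.47 and 4 called, among them Hist2h3c1, at 286 and 308 normalised counts at 24 h and 9.59 and 14.3 in long-term cells. With the GC offset the median of the mitochondrial genes was −0.22, with 2 called lower, and that of the histones −2.57, with 8 called lower. Histone genes have near-identical copies, so that the counts of single members are uncertain. The part of RNA preparation in the differences described here was not tested.

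The calls of the other lists follow, beside 3.16% of all genes called (1.44% higher and 1.72% lower). The amino acid and ER stress list (32 tested) had Chac1 called higher, and the two-cell-like list (13 tested) Spz1 higher. The neural list (11 tested) had Nes higher and Ncam1 and Neurod1 lower, and the trophoblast list (20 tested) Krt8 and Krt18 higher. For these lists in turn, the GC offset gave 8 higher and 1 lower, 3 and 0, 1 and 2, and 4 and 2. The basement membrane and adhesion list (35 tested) added Cldn6, higher, and Zeb1, lower and not called with the GC offset, to the laminin, collagen IV and nidogen genes given above. By edgeR without an offset, no gene was called in the mesendoderm, fibroblast, Hox and Evx, cholesterol synthesis and immediate early lists. With the GC offset, the fibroblast list again had 0 calls, while 4 mesendoderm and 3 Hox and Evx genes were called lower, 5 cholesterol synthesis genes higher and 1 lower, and 4 immediate early genes higher and 2 lower. Of the 12 Hox and Evx genes tested, Hoxa13 alone was called between 24 h and Dox. Hoxa13 had 1055 and 896 normalised counts in Dox, 9.60 and 32.5 at 24 h, 1.92 and 3.41 in long-term cells and 7.97 to 13.3 in Tg2a cells, and only the first step was called. Evx1 had a mean of 132 normalised counts in Dox and of 0.00 at 24 h and 0.479 in long-term cells.

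The called genes were then sorted by their history. Of the 477, 245 were late: they had moved little by 24 h, the difference between 24 h and Dox being at most 0.25 of that between long-term cells and Dox. A further 58 were continued, with more than 0.25 of that difference already present at 24 h in the same direction. The step between Dox and 24 h did not have to be called. For the continued genes that rose, the median log2 fold change over Dox was 1.07 at 24 h and 3.64 in long-term cells. For those that fell it was −1.08 and −2.78. Only 20 were fading, in that they had moved at least 2-fold by 24 h and had lost at least 0.5 of that difference in long-term cells. The other 154 had a 24 h difference opposite to the later one that did not meet these limits. The late, continued and fading genes made up 1.62%, 0.384% and 0.132% of the genes tested. The sorting uses fitted differences that share libraries, so the counts are a description.

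**Figure D4:**
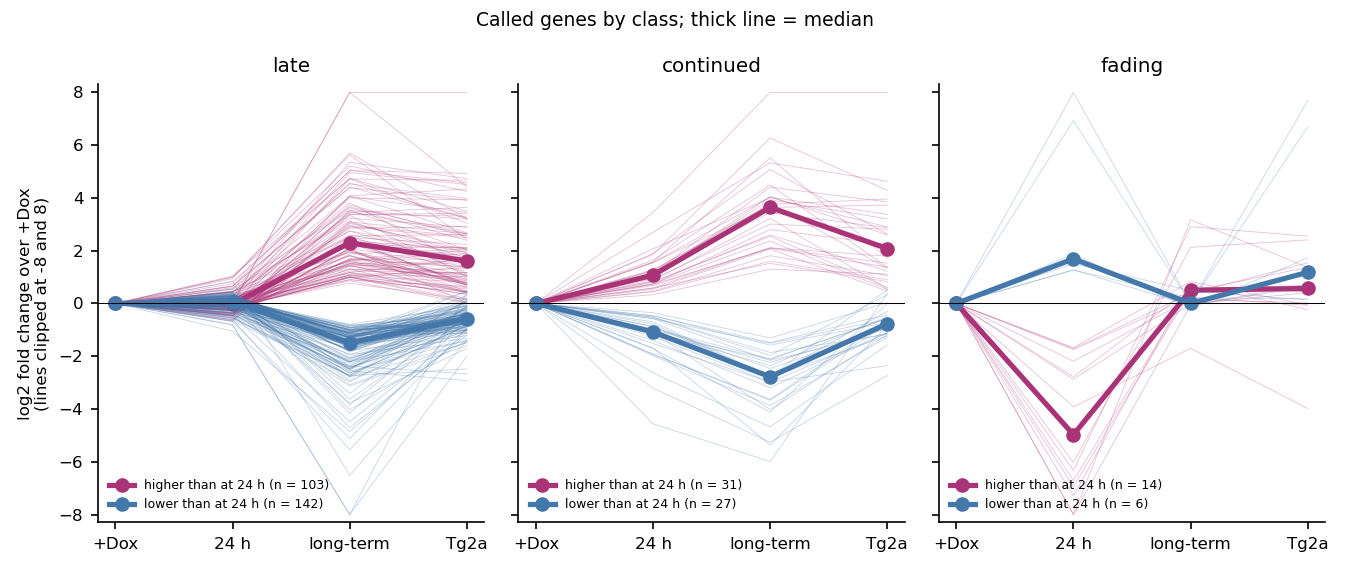
Log2 fold change over cells in Dox (y axis) at 24 h, in long-term cells and in Tg2a cells (x axis), for late, continued and fading genes; thin lines are genes and thick lines medians, with lines clipped at −8 and 8, purple where the long-term level was called higher than at 24 h and blue where lower. The medians of late genes stay near 0 at 24 h and reach 2.30 and −1.49 in long-term cells, while fading genes leave 0 at 24 h and return towards it by definition; 8 of the 14 that dipped have at most 3 counts in each 24 h library, so that the depth of their lines is no measured fold.

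Late genes numbered 103 higher and 142 lower. Col4a1, Pim2 and Dnmt3l, described above, were among those that rose. Beside Gata4, the higher ones with the largest differences included Tfec, a MiT family transcription factor. Tfec had 14.4 and 0.00 normalised counts at 24 h and 349 and 173 in long-term cells (35.3-fold). Habp2, a secreted protease, went from 7.20 and 2.96 to 153 and 85.1 normalised counts, and Vrtn, which bears on vertebral number, from 7.20 and 5.92 to 175 and 178, both from too few counts at 24 h for a fold. Naip6, an inflammasome receptor, had 11.9 ± 0.12 (SD, n = 2) at 24 h and 258 and 145 in long-term cells. The olfactory receptor gene Olfr307 had 9.60 and 0.00 and then 136 and 113, above the 10.4 to 17.5 of Tg2a cells.

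Among late genes that fell, Emp1, an epithelial membrane protein, had 2059 and 3218 normalised counts at 24 h and 214 and 144 in long-term cells (13.9-fold lower, adjusted p = 0.0184). Neurod1, a neurogenic bHLH factor, had 1145 and 881 and then 91.1 and 153 (7.86-fold lower, adjusted p = 0.0294). Rapgef3, an exchange factor for Rap that cAMP activates, had 79.2 and 192 and then 5.75 and 2.04, and Klhdc7a, a kelch domain gene, 122 and 284 and then 16.3 and 6.13. Trim52, a ubiquitin ligase, fell from 562 and 568 to 67.1 and 74.9, and Palm2 and the X-linked Xlr5b fell as well (log2 fold changes −2.77 and −2.76). Of the 142 late genes that fell, 93 had a 24 h level closer to Tg2a cells than the long-term level, and for 67 of the 103 that rose (65.0%) the long-term level was the closer one, a share near the 63.0% of all genes tested.

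Continued genes numbered 31 higher and 27 lower. Nanog itself, Klf4, Lefty1, Lefty2, H19, Sfrp1 and Ccnd1 belong here. Of these, Nanog alone was also called between 24 h and Dox. Ncam1, a neural adhesion molecule, had 1613 and 1463 normalised counts in Dox, 427 and 405 at 24 h and 111 and 100 in long-term cells (3.71-fold lower after 24 h, adjusted p = 0.0245). Mras, a Ras family GTPase, had 2072 and 2950, then 636 and 1029, and then 78.6 and 42.9 (12.8-fold lower after 24 h, adjusted p = 0.0245). Timd2, a ferritin receptor, went from 2.97 and 7.78 in Dox through 21.6 and 17.7 to 471 and 323 (21.2-fold after 24 h, adjusted p = 0.0245). Of 14 genes called between 24 h and Dox, 4 were called again in the same direction after 24 h, namely Nanog, Ncam1, the adaptor gene She and the receptor gene Kit, the last 2 named after their values were seen. Kit had 5196 and 4774 normalised counts in Dox, 1320 and 1485 at 24 h and 473 and 338 in long-term cells (3.26-fold lower after 24 h). For 25 of the 27 continued genes that fell, the 24 h level was closer to Tg2a cells than the long-term level.

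Fading genes were few, and 10 of the 20 had at most 3 counts in every library of the lower group, which leaves them without a fold. Runx1, a transcription factor of blood development, had 313 and 243 normalised counts in Dox, 81.6 and 47.3 at 24 h and 378 and 244 in long-term cells, and Tg2a cells had 246 to 296. The recovery after 24 h was 5.08-fold (log2 fold change 2.35, standard error 0.40, adjusted p = 0.0397), and the long-term libraries overlapped those in Dox. Dpysl5, a neuronal protein, had 112 and 99.5 in Dox, 33.6 and 35.5 at 24 h and 120 and 158 in long-term cells (4.25-fold, adjusted p = 0.0437). Rapgef4, a relative of Rapgef3, recovered in part, with 750 and 428, then 40.8 and 41.4, and then 225 and 138 normalised counts (4.68-fold, adjusted p = 0.0465), and stayed above the 27.2 to 52.0 of Tg2a cells.

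In the opposite direction, Mcf2, a guanine nucleotide exchange factor, peaked at 24 h. It had 1788 and 1642 normalised counts in Dox, 4185 and 4608 at 24 h and 1611 and 1671 in long-term cells (2.53-fold lower than at 24 h, adjusted p = 0.0258). Pmaip1 had 1941 and 1684, then 4502 and 4836, and then 2200 and 2010 (2.09-fold lower, adjusted p = 0.0345), a call that was lost with the GC offset (adjusted p = 0.0915). The adhesion gene Ceacam1 had 1078 and 840, then 3052 and 2786, and then 1435 and 1271 (2.04-fold lower, adjusted p = 0.0442). Mobp, a myelin gene, went from 55.5 and 38.9 to 216 and 154 and returned to 39.3 and 44.3 (4.17-fold lower, adjusted p = 0.0454).

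The early differences were also followed without regard to later calls. A broader set was taken of 516 genes that differed between 24 h and Dox by at least 1 on the log2 scale, without overlap of the libraries (36.8% of all genes tested did not overlap) and whose higher group averaged 100 normalised counts or more. In long-term cells, 281 (54.5%) retained between 0.5 and 1.5 of the early difference, 99 (19.2%) had grown beyond that, and 136 had faded below 0.5. Both differences are taken over the same 2 libraries in Dox, which were the least alike, so that chance deviations of these libraries count as retained and the shares are a description. The faded share was 26.4% (95% Wilson interval 22.7% to 30.3%, counting error only, with genes that are not independent). It was 25.6% of the 375 genes lower at 24 h and 28.4% of the 141 higher. Where the early difference was at least 2 on the log2 scale, 13 of 90 genes (14.4%) had faded. The set followed the GC trend of 24 h minus Dox. The median GC content was 53.3% in the genes lower at 24 h and 46.2% in those higher, beside 49.3% in all genes tested. With the GC offset the set held 409 genes, of which 222 had kept the early difference, 95 had grown and 92 (22.5%) had faded. The median log2 fold change of the 375 lower genes was −1.43 at 24 h and −1.33 in long-term cells, both over Dox, and that of the 141 higher genes 1.26 and 1.35. Compared with Tg2a cells, which share no library with the choice of these genes, long-term cells were lower by 0.78 in the median for the 375 and higher by 0.68 for the 141, beside −0.02 for all genes tested.

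The response to a gain of Nanog was available from SunTag cells, in which a Dox-inducible CRISPR activator is brought to the endogenous Nanog promoter, with 2 libraries in Dox and 3 without, all in LIF. They came from 2 clones, each with 1 library in Dox, and the model had no term for the clone. No gene reached an adjusted p-value of 0.05 there by edgeR, and 1025 of 14059 genes had an unadjusted p-value under 0.05, so the values are used as medians only. The paper, by DESeq2's Wald test, does report responsive genes for SunTag cells in LIF, after a longer time in Dox than 24 h. Late genes had a median log2 fold change on Nanog activation of 0.01 for those that rose and −0.20 for those that fell, beside −0.02 for all genes. Continued genes that rose after Nanog loss had a median of −0.63, with 21 of 28 below 0, and those that fell one of 0.45, with 20 of 27 above 0. Fading genes that had dipped at 24 h had a median of 0.91, with 11 of 13 above 0, among them Runx1 at 1.44. The 4 fading genes measured that had peaked at 24 h were all below 0. Of all 14059 genes, 6814 were above 0 and 7245 below. The called genes outside these 3 classes were alike in this. Those higher than at 24 h had a median of 0.31, with 46 of 66 above 0. Those lower had one of −0.37, with 70 of 78 below 0. The difference between the classes was not tested.

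**Figure D5:**
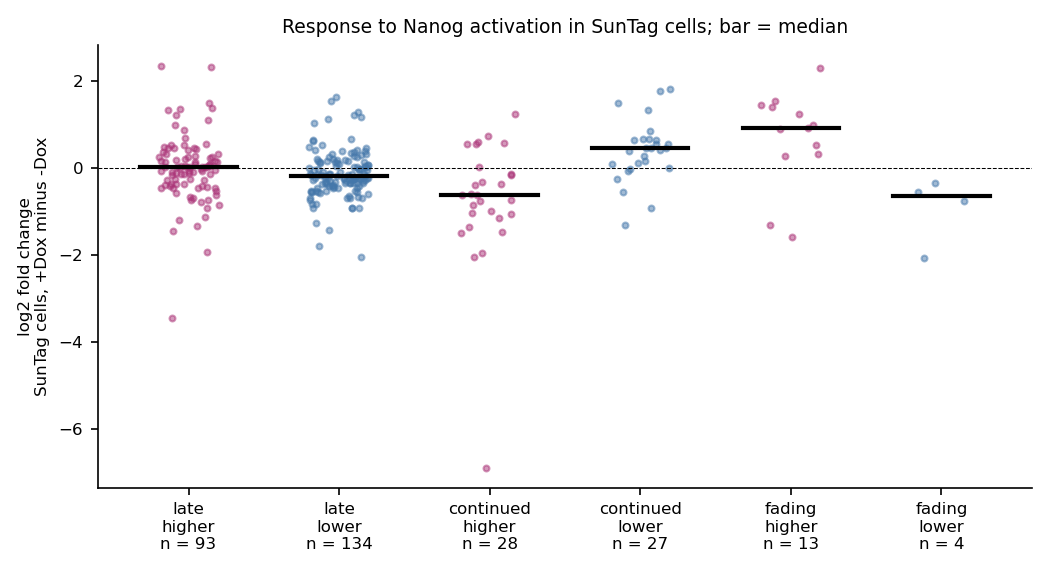
Log2 fold change of SunTag cells with Nanog activated over those without (y axis) for late, continued and fading genes that were higher or lower in long-term cells than at 24 h (x axis); points are genes and bars medians. The medians of late genes lie at 0.01 and −0.20, those of continued genes at −0.63 and 0.45, and those of fading genes at 0.91 and −0.65.

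Promoter windows are described for late genes. Fading genes had few windows, 8 for those higher than at 24 h and 4 for those lower. The median GC content was 57.2% in the 70 late genes that rose and had a window, and 62.5% in the 88 that fell. It was 60.7% in the 9897 tested genes with a window. The ratio of observed to expected CpG was 0.498, 0.746 and 0.756, so that the late genes that rose had fewer CpG in the median. By chromosome, the median log2 fold change of long-term minus 24 h lay between −0.12 (chromosome 13) and 0.23 (chromosome 7) over the autosomes and the X chromosome.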

How the data were processed

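RNA-seq libraries of poly(A) RNA were made, and reads aligned to mm9 with STAR and turned into estimated counts with RSEM, by the authors. The authors deposited the estimated counts of each gene and, from DESeq2, the same counts divided by a size factor for each library, a normalised signal that served here only as the printed level (normalised counts). The estimated counts were rounded and tested with edgeR 4.0.16 (quasi-likelihood, TMM) in R 4.3.3. The model held the 6 44iN libraries, 2 per group, and genes entered it if all libraries of 1 group or more reached 10 normalised counts. The Benjamini-Hochberg threshold was 0.05. The comparison with Tg2a cells used 9 libraries, and SunTag cells had a model of their own. The scripts were tested on simulated counts. No fold is given where a group has at most 3 counts in every library.

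Members and gene lists were chosen with earlier results of these data known. Named genes were fixed pluripotency genes, the 12 with the largest difference in each direction, well-expressed genes of each class and called list members, with other genes named as chosen after their values were seen. A gene that this rule names is not reported here. DESeq2 1.42.0, other filters, scalings and sets of libraries, leaving out each library and a replicate block were tried as alternatives, and offsets for GC content and length were added after seeing the data. Depth was 12624297 to 17425410 counts at 24 h and 47233398 to 67060119 in long-term cells, and intervals cover counting error only. Promoter sequences are from RefSeq (GRCm38.p6), and 9897 of 15013 symbols of tested genes matched.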

Additional observations from a re-analysis of the deposited data

How the results depend on the processing

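All of the 477 called genes that an alternative tested kept their direction in it, but counts of calls changed widely. The calls, with those higher and lower in brackets, numbered 1787 (697 and 1090) with DESeq2, 2439 (1237 and 1202) without a filter on low counts, 4047 (1892 and 2155) with the 4 libraries alone and 1339 (655 and 684) with 9 libraries. They numbered 2119 (1130 and 989) with the GC offset, 2597 (1411 and 1186) with the GC offset and the replicate block, and 3610 (1999 and 1611) with the GC offset on the 4 libraries alone. Late, continued and fading genes numbered 689, 206 and 62 with DESeq2, 806, 268 and 194 without a filter, 587, 153 and 77 with 9 libraries, 1081, 299 and 93 with the GC offset, and 1256, 390 and 102 with the GC offset and the replicate block. Fading genes numbered 13 with edgeR's own filter, and late genes 104 with a limit of 0.1. The 4 libraries alone give no classes. The cause was not tested.

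With 1 library left out, calls ranged from 0 to 3977 (higher 0 to 1836, lower 0 to 2168), late genes from 0 to 2442, continued genes from 0 to 548 and fading genes from 0 to 613. A group left with 1 library is assumed to vary like the others. Where no gene was called, edgeR's unadjusted p-value was under 0.05 for 1986 and 1802 genes. Called primitive endoderm genes ranged from 0 to 21.

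With the replicate block, the calls numbered 2031 (895 and 1136), with 710 late, 223 continued and 106 fading. The numbers were not taken as pairs, since deviations of same-numbered libraries correlated at 0.44 between 24 h and Dox but at 0.06 between 24 h and long-term cells and 0.09 between Dox and long-term cells.

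The faded share of early differences was 14.4% from a log2 difference of 2, 36.0% from a mean of 30 normalised counts and 22.5% with the GC offset. Klf5, not called, had 0.24 without 24 h replicate 2 and changed sign to −0.09 without 24 h replicate 1, −0.34 with the GC offset and with the GC offset and block, −0.05 with the length offset and −0.35 with the GC offset on 4 libraries. Otx2, not called, changed sign to −0.17 without long-term replicate 2. At 24 h, depth limits genes of low level.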
